A study of Mus musculus with 24 samples.

Results

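The 10 genes described here encode the 5 enzymes of the urea cycle and 5 further proteins of periportal hepatocytes, the liver cells around the vessels through which blood enters the lobule. They were chosen by name. The urea cycle enzymes were carbamoyl-phosphate synthetase (Cps1), ornithine transcarbamylase (Otc), argininosuccinate synthetase (Ass1), argininosuccinate lyase (Asl) and arginase (Arg1). The other members were the amino acid degrading enzymes histidine ammonia-lyase (Hal), serine dehydratase (Sds) and liver glutaminase (Gls2), the cytochrome P450 enzyme Cyp2f2, and the lipid droplet protein Hsd17b13. Of the 25746 genes listed in the count data, 12330 passed the filter on low counts, and all 10 members were among them.

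The urea cycle turns ammonia, which arises when amino acids are broken down, into urea. Cps1 and Otc work inside mitochondria, where ammonia and bicarbonate become carbamoyl phosphate and then citrulline. Ass1, Asl and Arg1 work in the cytosol, where citrulline takes up a second nitrogen from aspartate and is finally split into urea and ornithine. Gls2, Sds and Hal release ammonia from glutamine, serine and histidine. These steps are more active in periportal than in pericentral hepatocytes, while glutamine synthetase (Glul), which captures remaining ammonia, marks the cells around the central vein. Bulk liver RNA holds no information on position in the lobule, and fewer cells of a type and less RNA per cell cannot be told apart in it.

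Liver RNA was sequenced from 24 mice of the C57/BL6N background aged 12 weeks, with 6 mice in each group. The male groups were wildtype (mWT) and homozygous knockout (mKO), and the female groups were wildtype (fWT) and homozygous knockout (fKO). In KO mice the whole cluster of major urinary protein (Mup) genes had been deleted with CRISPR/Cas9, and the line went back to 1 male founder. All mice ate standard chow freely, were fasted for 4 h and anaesthetised with isoflurane for a body scan, and were then killed, so that every level below is that of a briefly fasted liver. The study asked how loss of the Mup genes changes the liver in each sex.

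Each library was made from 1 mouse. Total counts ranged from 15361901 to 26261394 reads. Mup expression, summed over 22 genes, was at least 3395 CPM (read counts scaled to library size) in every WT mouse and at most 0.457 CPM in every KO mouse, which matched the labels. The 5 hepatocyte markers together made up 99239 to 160168 CPM, and none of them was at 0. Their medians were also higher in females, at 111595 CPM in mWT and 127183 CPM in fWT mice. In KO mice they were 120869 CPM in males and 131472 CPM in females. Erythrocyte markers (5 genes) summed to 149 to 260 CPM in males and to 40.5 to 67.8 CPM in females, and reads on mitochondrial genes made up 4.99% to 6.98% of all reads in males and 4.41% to 6.15% in females. Markers of 4 other kinds of liver cells (6 genes each) had higher medians in females. Those of Kupffer cells were at 68.3 CPM in mWT and 104 CPM in fWT mice, of stellate cells and fibroblasts at 231 and 290.2 CPM, of endothelial cells at 123 and 159 CPM, and of cholangiocytes at 35.7 and 45.01 CPM. In KO mice these medians were 61.0, 228, 125 and 37.1 CPM in males and 83.2, 282, 147 and 45.9 CPM in females, and the ranges of the sexes overlapped for all 4 lists. All of these move with sex, and their part in the sex differences below was not tested.

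The members were among the abundant transcripts of the liver. Together they took up 1.02% to 1.59% of all counted reads, with group medians between 1.32% and 1.34%. Cps1 had the highest level, with 4664 to 7499 CPM over the 24 mice, and Sds had the lowest, with 75.5 to 234 CPM. To set genes beside each other, levels were divided by the joined length of all annotated exons of each gene. This length can exceed that of the transcript made in liver, which would lower the value, so the order is approximate. Per kilobase of exon, the median over 24 mice was 1083 CPM per kb for Cps1, 796 for Ass1, 735 for Arg1 and 519 for Cyp2f2. A second tier followed with 157 CPM per kb for Otc, 139.8 for Hsd17b13, 109.9 for Gls2, 101 for Asl, 88.7 for Hal and 81.8 for Sds. In this order the ranges of neighbours over the mice overlapped at every step except between Cyp2f2 (lowest mouse 296 CPM per kb) and Otc (highest mouse 199 CPM per kb). On this scale the 5 enzymes of the cycle thus spread over both tiers, with Otc and Asl below the others.

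**Figure D1:**
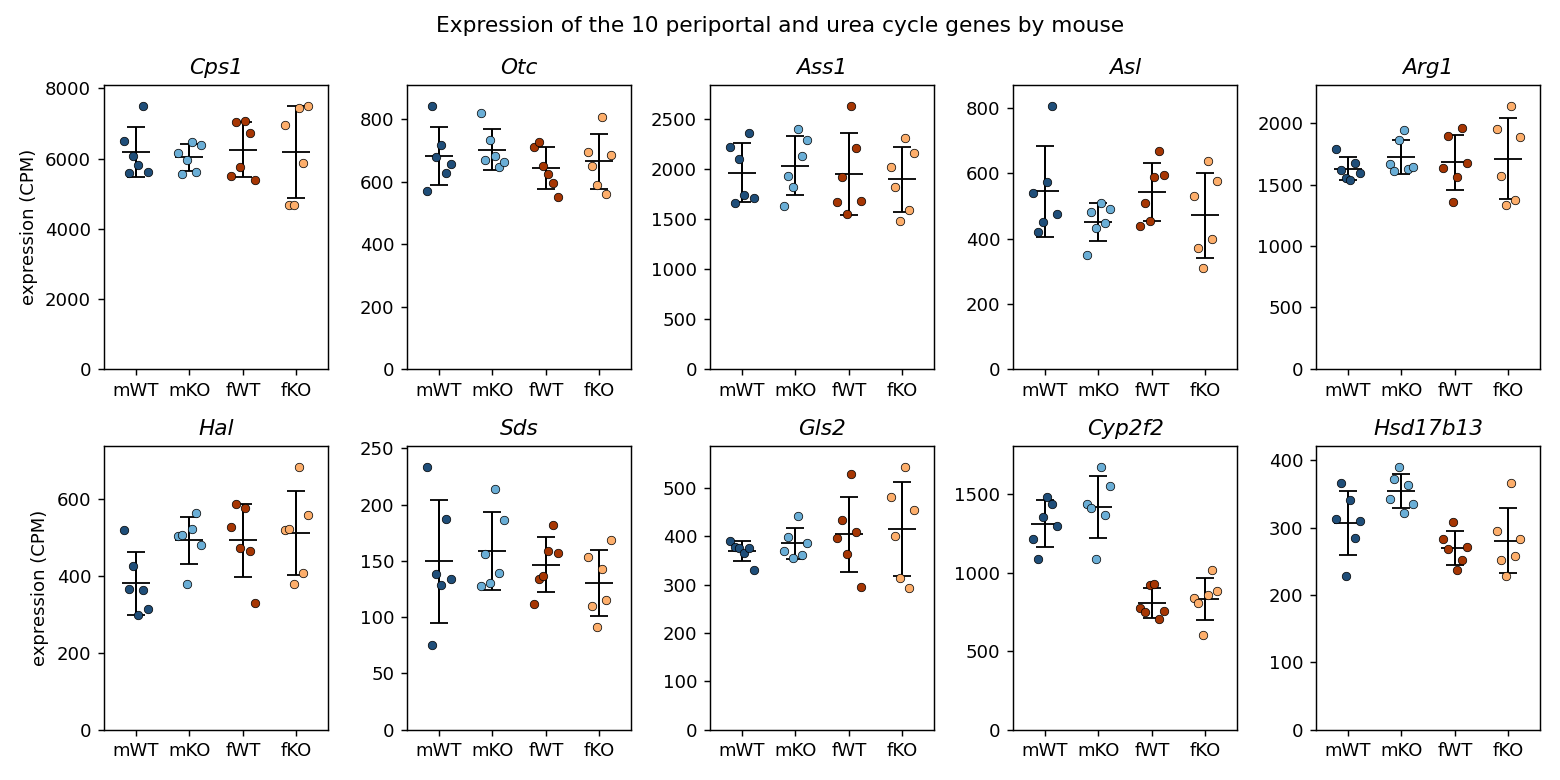
Expression of the 10 genes in CPM (vertical axes, each starting at 0) in each mouse of the 4 groups (horizontal axes). Points are mice, and bars are the mean and SD of 6 mice. The Cyp2f2 points of males (1086 CPM and above) lie above those of females (1017 CPM and below), while the groups overlap in the other panels.

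None of the 5 urea cycle enzymes passed the test for an effect of the Mup deletion in either sex, and for 4 of them, all but Asl, the data bound any change in males to a narrow range. In males, the mean of Cps1, which catalyses the committed step of the cycle, was 6031 ± 384 CPM in mKO and 6184 ± 722 CPM in mWT mice (SD, n = 6 each). Cps1 ranged from 5568 to 6471 CPM (median 6067 CPM) in mKO and from 5594 to 7494 CPM (median 5946 CPM) in mWT mice, so the groups lay over each other. The log2 fold change was −0.04 (95% interval −0.27 to 0.20). For Otc, Ass1 and Arg1 it was 0.04, 0.05 and 0.08, and the 95% intervals of the 3 genes lay between −0.22 and 0.32. The interval bounds of these 4 genes correspond to changes of at most 1.25-fold up and to no less than 0.829-fold.

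Asl, which releases arginine and fumarate, was the enzyme of the cycle with the lowest KO estimates. It ranged from 348 to 509 CPM (median 465 CPM) in mKO and from 421 to 807 CPM (median 508 CPM) in mWT mice, with 1 mWT mouse at 807 CPM far above the rest. The male estimate was −0.27 on the log2 scale (standard error 0.167, unadjusted p = 0.12). Without that mouse (mWT 5) it was −0.12. In females Asl ranged from 310 to 637 CPM (median 465 CPM) in fKO and from 439.8 to 669.5 CPM (median 549 CPM) in fWT mice, and its log2 fold change was −0.20 (standard error 0.166). It was −0.11 without fKO mouse 3 and −0.13 without fWT mouse 5. Neither estimate passed the test.

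Across the 10 members, 0 passed an adjusted p of 0.05 for the KO effect in males in the quasi-likelihood test of edgeR (adjusted after Benjamini and Hochberg), against 0.211% of all genes tested. At the study's cut-off of an unadjusted p below 0.01, 0 of 10 members were counted against 3.52% of all genes. Hal was the 1 member with an unadjusted p below 0.05, against 10.6% of all genes, and DESeq2 also called 0. In females, 0 of 10 members were called against 0.0892% of all genes, 0 had an unadjusted p below 0.01 against 0.876%, 0 had one below 0.05 against 4.87%, and DESeq2 called 0. The median log2 fold change of the members was 0.07 in males and 0.03 in females, beside −0.0021 and −0.0026 over all genes tested. The calls among all genes include the deleted Mup genes. With the Mup genes removed before the fit, 2 genes were called in males and 0 in females, in place of 26 and 11. With so few calls among all genes, a count of 0 among 10 genes is close to that background.

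Hal, which starts the breakdown of histidine by removing its amino group as ammonia, had the highest estimate in males. Hal ranged from 379 to 562 CPM (median 504 CPM) in mKO and from 298 to 520.1 CPM (median 364 CPM) in mWT mice. Of the 6 mKO mice, 2 lay above every mWT mouse, and the rest overlapped with them. The log2 fold change was 0.37 (95% interval 0.06 to 0.68, unadjusted p = 0.0208, adjusted p = 0.363 in edgeR's quasi-likelihood test), and it ranged from 0.31 to 0.48 when single mice were left out. In fWT mice Hal ranged from 329 to 586 CPM (median 500.3 CPM) and in fKO mice from 379.5 to 684 CPM (median 520.1 CPM), a log2 fold change of 0.05. The mWT group, with a mean of 381 CPM, thus stood below the means of 492 CPM in mKO, 493 CPM in fWT and 512 CPM in fKO mice.

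The later steps of histidine breakdown were looked at beside Hal after their values were seen. Uroc1, Amdhd1 and Ftcd encode the enzymes that follow Hal in this order. In males their log2 fold changes between mKO and mWT were 0.07 for Uroc1, 0.41 for Amdhd1 and 0.17 for Ftcd, and in females −0.02, 0.09 and −0.04. Amdhd1 ranged from 139 to 185 CPM in mKO and from 86.3 to 160.005 CPM in mWT mice (unadjusted p = 0.0045, adjusted p = 0.216), and the groups overlapped. None of the 3 genes was called for the KO effect in either sex. Amt and Gldc, which also belong to amino acid breakdown, had larger male estimates than Amdhd1. Their log2 fold changes were 0.51 and 0.47 in males, and 0.13 and 0.17 in females. Neither was called in males (unadjusted p = 0.0095 and 0.0189, adjusted p = 0.281 and 0.354 in edgeR's quasi-likelihood test). The male groups overlapped for both.

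Hal is one of the members held in the set of RefSeq promoters (GRCm38.p6) used here. Its window, up to the base before the first annotated start (chr10:93488518-93488767, plus strand), is shown for its number of motif matches. It holds the most among the 5 members with a promoter in this set, in windows of 187 to 250 bases. The patterns searched are listed with the promoters of Cyp2f2 and Hsd17b13. Capitals mark, in this order, a match to CTTTGA (the TCF/LEF pattern), TTNNGCAA (C/EBP) and TATAAA (the box bound by the TATA-binding protein). The C/EBP and TATA-binding protein patterns were matched on the strand opposite to the gene, so their letters appear as the reverse complement.
Hal: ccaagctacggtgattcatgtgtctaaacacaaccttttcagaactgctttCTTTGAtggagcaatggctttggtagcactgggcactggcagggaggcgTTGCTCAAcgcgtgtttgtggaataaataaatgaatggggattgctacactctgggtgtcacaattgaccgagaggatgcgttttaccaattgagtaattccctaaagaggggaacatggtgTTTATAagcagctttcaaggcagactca

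The remaining members did not pass the test for the KO effect either. Hsd17b13, a protein of lipid droplets, ranged from 322 to 391 CPM (median 353 CPM) in mKO and from 229 to 366 CPM (median 312 CPM) in mWT mice. On the log2 scale it differed by 0.21 in males (95% interval −0.0077 to 0.42, unadjusted p = 0.0582), or 0.13 without mWT mouse 3, and 0.06 in females. Sds, which turns serine into pyruvate and ammonia, had the highest coefficient of variation of any member in any group. This was 36.3% in mWT mice, where Sds ranged from 75.5 to 234 CPM. In females Sds was not the most variable, at 16.7% in fWT (Ass1 21.1%) and 22.7% in fKO mice (Asl 27.5%). Its estimates on the log2 scale, 0.09 in males and −0.17 in females, came with standard errors of 0.206 each, and the latter ranged from −0.26 without fKO mouse 6 to −0.087 without fKO mouse 3. Gls2, which releases ammonia from glutamine beside Cps1 in the mitochondrion, had log2 fold changes of 0.06 and 0.04, and Cyp2f2 had 0.11 and 0.05.

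The KO effects of the 2 sexes were also compared with each other. For the difference of the KO effects, 0 of 10 members were called by edgeR's quasi-likelihood test (0.00811% of all genes), 0 had an unadjusted p below 0.01 (1.16% of all genes), 0 had one below 0.05 (5.96%), and DESeq2 called 0. The largest estimate was that of Hal, at 0.32 on the log2 scale (95% interval −0.12 to 0.75, unadjusted p = 0.149), followed by Sds at 0.26 and Hsd17b13 at 0.15. The estimates of the 5 urea cycle enzymes lay between −0.06 (Asl) and 0.09 (Ass1). The standard errors of this difference ranged from 0.135 for Otc to 0.291 for Sds.

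**Figure D2:**
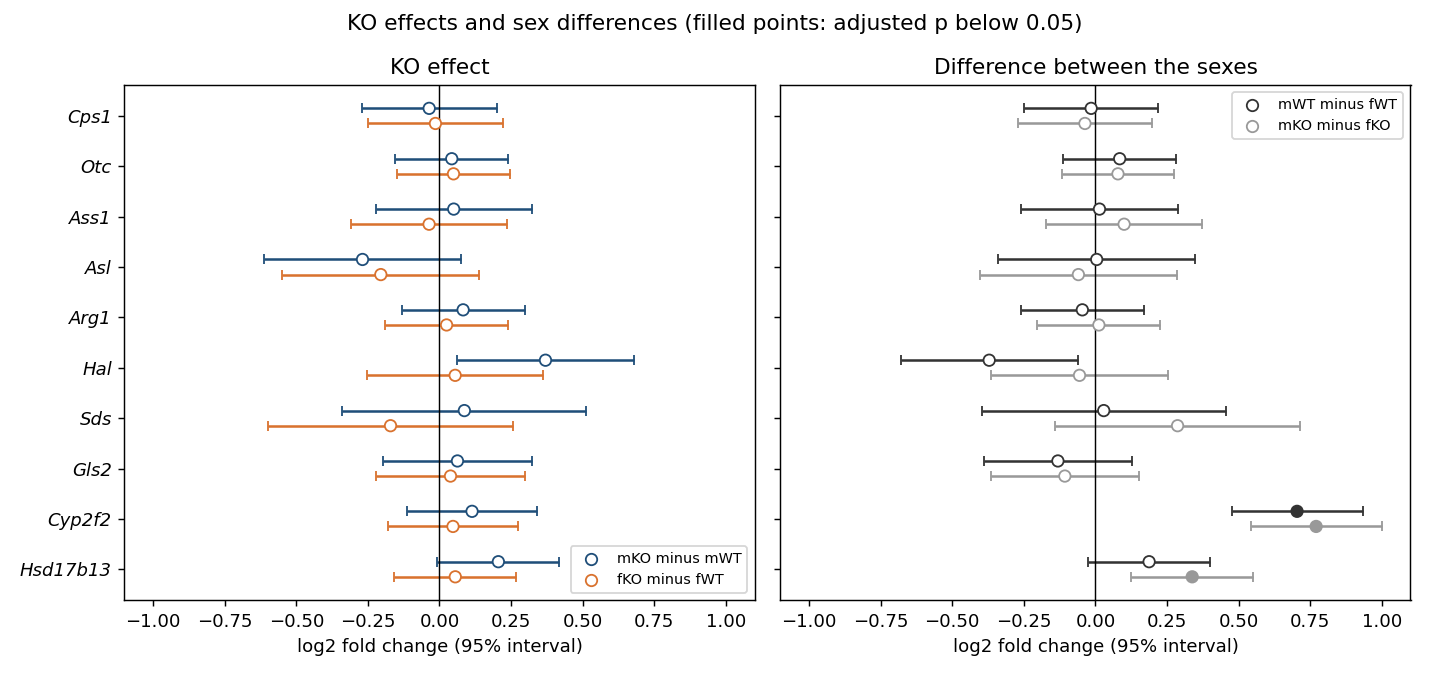
Log2 fold changes of the 10 genes with 95% intervals (horizontal axes) for the KO effect in males and females (left) and for males against females in WT and KO mice (right). Filled points passed an adjusted p of 0.05, which are Cyp2f2 in both genotypes (0.70 and 0.77) and Hsd17b13 in KO mice (0.34), and no KO effect is filled.

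The genes that supply the cycle and the other genes of nitrogen metabolism and zonation were not called for the KO effect by edgeR either. The 5 lists comprised suppliers and transporters of the urea cycle (8 of 10 tested), amino acid breakdown (20 tested), other periportal genes (18), pericentral genes (19) and regulators (16). In edgeR's test 0 genes of each list were called in either sex. In males 1, 3, 1, 2 and 1 genes of the lists, in this order, had an unadjusted p below 0.05, against 10.6% of all genes, and in females 0, 0, 0, 0 and 1, against 4.87%. At the study's cut-off of an unadjusted p below 0.01, the counts in males were 0, 2, 0, 1 and 0, against 3.52% of all genes. In females they were 0 in each list, against 0.876%. The supplier Slc25a12, which exports aspartate from mitochondria, had a log2 fold change of −0.30 in males (adjusted p = 0.338), and Nags, whose product switches Cps1 on, had 0.08. The level of Slc25a12 was low, with means of 13.7 CPM in mKO and 16.8 CPM in mWT mice. Slc25a13, another transporter of this list, had means of 262.9 and 262.4 CPM and a log2 fold change of 0.0029. The pericentral Cyp7a1, the rate-limiting enzyme of bile acid synthesis, ranged from 50.8 to 248 CPM in mKO and from 123 to 910.3 CPM in mWT mice (log2 fold change −1.81, adjusted p = 0.135). Cyp7a1 was the 1 pericentral gene below the study's cut-off in males, and the study named it among its top downregulated genes there. DESeq2 called Cyp7a1 in males, which was its 1 call among the lists for the KO effect.

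Between the sexes, Cyp2f2 was the member with a clear difference. This cytochrome P450, which oxidises small foreign compounds and is used as a periportal marker, was higher in males than in females in both genotypes. In WT mice it ranged from 1086 to 1483 CPM (median 1327 CPM) in males and from 703 to 929 CPM (median 765 CPM) in females. In KO mice it ranged from 1087 to 1674 CPM (median 1424 CPM) in males and from 600.0 to 1017 CPM (median 845 CPM) in females. Every male exceeded every female of its genotype. Males were 1.63-fold higher in WT mice (log2 fold change 0.70, standard error 0.111, adjusted p = 4.7e-05 in edgeR's quasi-likelihood test) and 1.71-fold higher in KO mice (log2 fold change 0.77, standard error 0.111, adjusted p = 1.5e-05). These differences of WT and KO mice differed from each other by 0.07 on the log2 scale (95% interval −0.26 to 0.39), so a change of the sex difference with the loss of the Mup genes was not detectable. Without any single mouse the log2 fold change lay between 0.67 and 0.75 in WT and between 0.69 and 0.84 in KO mice.

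Of the 10 members, 1 was called between the sexes in WT mice, against 17.3% of all genes, and 2 were called in KO mice, against 14.4%. Groups without overlap were found for 1 member, Cyp2f2, in WT mice (7.7% of all genes) and in KO mice (7.26%). With 10 genes, counts of 1 and 2 are near what these shares give. The median log2 fold change of the members between males and females was 0.0092 in WT and 0.05 in KO mice, beside −0.0020 and −0.0045 over all genes.

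Hsd17b13 was the second member called in KO mice. It ranged from 322 to 391 CPM (median 353 CPM) in mKO and from 228 to 367 CPM (median 270.4 CPM) in fKO mice, where 1 fKO mouse lay within the male range. Males were 1.26-fold higher (log2 fold change 0.34, standard error 0.104, adjusted p = 0.0277 in edgeR's quasi-likelihood test). Without mKO mouse 2, 3 or 5 or fKO mouse 2, 3 or 5, the adjusted p lay between 0.0517 and 0.0734, so this call depended on each of these 6 mice. In WT mice Hsd17b13 ranged from 229 to 366 CPM in males and from 237 to 309 CPM in females, with a log2 fold change of 0.19 (adjusted p = 0.226). The difference between these 2 values, 0.15 (adjusted p = 0.925), did not pass the test.

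Hal went the other way in WT mice, with a log2 fold change of −0.37 between mWT and fWT mice (unadjusted p = 0.0205, adjusted p = 0.0903 in edgeR's quasi-likelihood test), and was at −0.06 in KO mice. The lowest fWT mouse (fWT 6, 329 CPM) and the highest mWT mouse (mWT 1, 520.1 CPM) lay within the range of the other sex. Without mWT mouse 1 the log2 fold change was −0.48 (adjusted p = 0.024), and without fWT mouse 6 it was −0.46 (adjusted p = 0.0252). The comparison of mKO with mWT mice above used the same mWT mice.

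The urea cycle enzymes did not differ between the sexes beyond the spread between mice. Otc lies on the X chromosome, and its level was 682 ± 92.7 CPM in mWT and 643 ± 66.7 CPM in fWT mice (SD, n = 6 each). Its log2 fold change was 0.08 in both WT (95% interval −0.11 to 0.28) and KO mice (−0.12 to 0.28). For Cps1, Ass1, Asl and Arg1 the log2 fold changes lay between −0.05 and 0.01 in WT and between −0.06 and 0.10 in KO mice. Sds was at 0.03 and 0.29, and Gls2 at −0.13 and −0.11, none of which passed the test. Without single mice Gls2 ranged from −0.21 (fWT 6) to −0.040 (fWT 4) in WT and from −0.19 (fKO 5) to −0.019 (fKO 4) in KO mice, and Sds in KO mice was at 0.18 without mKO mouse 4.

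Zonated genes outside the member list were also called between the sexes. Among the other periportal genes, 5 of 18 were lower in mWT than in fWT mice and 0 were higher (8.81% of all genes were lower and 8.51% higher), led by Igfals, a carrier of insulin-like growth factor (log2 fold change −0.68), Aldh1b1 (−0.67), Pigr (−0.66) and Trf (−0.40). Among the pericentral genes, 8 of 19 were lower in mWT mice and 0 were higher, including Lect2 (−0.85), Nkd1 (−0.72), Lhpp (−0.48) and Oat (−0.48). In KO mice 4 of 18 periportal genes (Igfals, Pigr, Trf and Igf1) and 5 of 19 pericentral genes (led by Cyp7a1 at −1.56, Slc1a2 at −0.71, Lect2 at −0.69 and Glul at −0.50) were lower in males, against 7.13% of all genes. Whether the lists differ from other genes was not tested. The markers of erythrocytes and of other liver cells given above moved with sex in the same mice, and their part was not tested. Periportal and pericentral lists thus both held genes that were lower in males, while the member Cyp2f2 was higher.

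Of the 20 genes of amino acid breakdown, 4 were called in WT and 3 in KO mice, against 17.3% and 14.4% of all genes. Agxt2 was higher in mWT mice (0.34), and Agxt (−0.66), Hpd (−0.43) and Uroc1 (−0.25) were lower, while Tdo2 (0.54), Ftcd (0.42) and Agxt2 (0.38) were higher in mKO than in fKO mice. The supplier Got2 was higher in mKO than in fKO mice (0.26). Of the calls in these lists, 5 in WT mice were lost when single mice were left out, namely Uroc1 without any 1 of 8 mice, Slc1a2 of 7, Oat of 6, Znrf3 of 3 and Apof of 2 (highest adjusted p in edgeR 0.117, 0.0868, 0.113, 0.0659 and 0.0525). In KO mice 3 calls were lost, those of Igf1, Cyp7a1 and Got2, without any 1 of 15, 7 and 7 mice (highest adjusted p 0.115, 0.0763 and 0.0813). Of the 16 regulators, 0 were called in edgeR's test in either genotype, with 3 and 2 at an unadjusted p below 0.05 (30.6% and 28.4% of all genes), and DESeq2 called 0.

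The set of RefSeq promoters used here held those of 5 of the 10 members, and the promoters of the members with a sex difference are shown next. Each window ends at the base before the first annotated start, was read 5′ to 3′ on the strand of the gene, and was searched on both strands for TTCNNNGAA (STAT5), CTTTGA (TCF/LEF), TGACG (the core of the cAMP response element), TGTTCT (the glucocorticoid receptor), TTNNGCAA (C/EBP), GTTAAT (HNF1) and TATAAA (the box bound by the TATA-binding protein). No pattern contains another, and the matches shown do not overlap. Of 27025 promoter windows of 250 bases in the RefSeq table, 7.18% hold TTCNNNGAA, 14.0% CTTTGA, 17.9% TGACG, 16.2% TGTTCT, 9.55% TTNNGCAA, 6.52% GTTAAT and 13.0% TATAAA. The 204 bases of Cyp2f2 (chr7:27119705-27119908, plus strand) hold 0 of the 7 patterns. The 228 bases of Hsd17b13 (chr5:103977411-103977638, minus strand) hold CTTTGA and TGACG once each, in capitals, the latter read on the opposite strand as CGTCA. A match is a string of letters and not a bound site. The 46 bases of Cyp2f2 and 22 of Hsd17b13 between the first annotated start and the RefSeq start were not searched. The shares above are of full windows that end at the RefSeq start.
Cyp2f2: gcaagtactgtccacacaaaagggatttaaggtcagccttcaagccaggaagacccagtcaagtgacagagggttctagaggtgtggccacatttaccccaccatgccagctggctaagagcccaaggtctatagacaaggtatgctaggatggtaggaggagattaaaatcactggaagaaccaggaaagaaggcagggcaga
Hsd17b13: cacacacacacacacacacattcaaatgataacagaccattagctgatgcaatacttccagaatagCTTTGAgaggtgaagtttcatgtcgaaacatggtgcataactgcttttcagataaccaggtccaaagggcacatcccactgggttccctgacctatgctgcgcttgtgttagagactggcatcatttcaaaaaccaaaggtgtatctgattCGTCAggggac

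Mice of 1 group differed from each other, and 7 of the 10 members took part in pairs that varied together. After the mean of each group was subtracted from the log2 CPM values, 37 of the 45 pairs of members had a positive Pearson's r over the 24 mice, and 14 pairs passed an adjusted p of 0.05 in a two-sided permutation test within groups (100000 permutations, Benjamini-Hochberg adjustment over 45 pairs). All 14 were positive. The mean r over the 45 pairs was 0.37, beside 0.00048 over all pairs of genes tested. Scaling brings the bulk of genes to a common level in each mouse, which tends to hold the latter mean near 0. The genes tested reach down to the filter of 0.66 CPM and were not matched to the members for level. An r at or above the lowest of the 14 (0.49) was found for 19 of the 45 pairs, or 42.2%, and for 4.14% of all pairs of genes tested. This threshold was taken from the member pairs themselves, so the 14 reach it by construction, and the shares are a description. Ass1 took part in 6 of these pairs, Cps1 in 5, Asl, Arg1 and Sds in 4 each, Gls2 in 3 and Hal in 2. Otc, Cyp2f2 and Hsd17b13 took part in none.

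Of the urea cycle enzymes, Cps1, Ass1, Asl and Arg1 varied with one another in all 6 possible pairs. Cps1 and Asl had r = 0.76 (rho = 0.72, permutation p = 0.00056, adjusted p = 0.0036), and r was 0.69 without the 2 mice farthest from the median. Ass1 and Asl, which act one after the other, had r = 0.75 (rho = 0.78, permutation p = 5e-05, adjusted p = 0.0011, and r = 0.76 without the 2 farthest mice). The weakest of the 6 pairs was Ass1 and Arg1, with r = 0.58 (rho = 0.53, permutation p = 0.00885, adjusted p = 0.0287, and r = 0.66 without the 2 farthest mice). The 2 farthest mice were chosen by 1 gene of each pair, the earlier one in the opening list of members. With the fKO group left out, the pairs with Arg1 fell to r = 0.46 (Cps1), 0.36 (Ass1) and 0.36 (Asl). The pairs among Cps1, Ass1 and Asl then lay between 0.57 and 0.75.

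The amino acid degrading members joined this group to different degrees. The highest r of all pairs was that of Hal and Gls2 (r = 0.77, rho = 0.70, permutation p = 3e-05, adjusted p = 0.0011, and r = 0.67 without the 2 farthest mice). Gls2 and Ass1 had r = 0.75 (rho = 0.77, permutation p = 0.00011, adjusted p = 0.0012, and r = 0.66 without the 2 farthest mice). Sds varied most closely with Asl (r = 0.74, rho = 0.83, permutation p = 0.00022, adjusted p = 0.0016, and r = 0.70 without the 2 farthest mice). Sds and Hal, both enzymes that release ammonia from an amino acid, did not pass the test (r = 0.35, rho = 0.31, permutation p = 0.122, adjusted p = 0.213, and r = 0.37 without the 2 farthest mice).

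**Figure D3:**
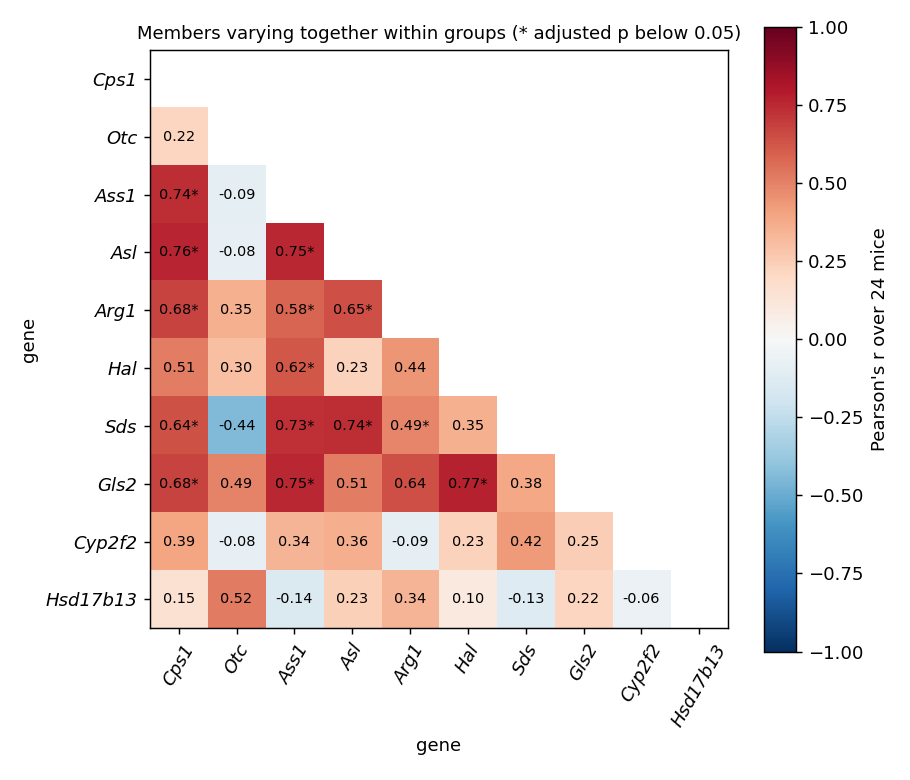
Pearson's r between each pair of the 10 genes over 24 mice, from log2 CPM after subtraction of group means (colour from −1 to 1, values written in). Asterisks mark the 14 pairs with an adjusted p below 0.05, and the rows and columns of Otc, Cyp2f2 and Hsd17b13 hold none.

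The fKO mice showed this common variation most clearly. In fKO mouse 3 all 10 members were below the group mean, on average by 0.38 on the log2 scale (mean deviation −0.38), and 8 of them were the lowest of the group. In fKO mouse 4 all 10 were above it, on average by 0.32, and 7 were the highest. Both had totals within the range of the other libraries (18441005 and 20059659 reads), and 4.88% and 6.15% of their reads lay on mitochondrial genes, the latter the highest share among females. Within the 6 fKO mice r of the 14 pairs lay between 0.70 and 0.98, while it lay between 0.32 and 0.91 in mWT, between 0.08 and 0.87 in mKO and between 0.34 and 0.94 in fWT mice. With fKO mice 3 and 4 left out, 9 pairs passed (8 of them positive), and with the whole fKO group left out 9 pairs passed (7 of them positive). Without fKO mouse 3 alone 8 pairs passed, without fKO mouse 4 or mKO mouse 4 10 pairs, and without mWT mouse 1 18 pairs.

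**Figure D4:**
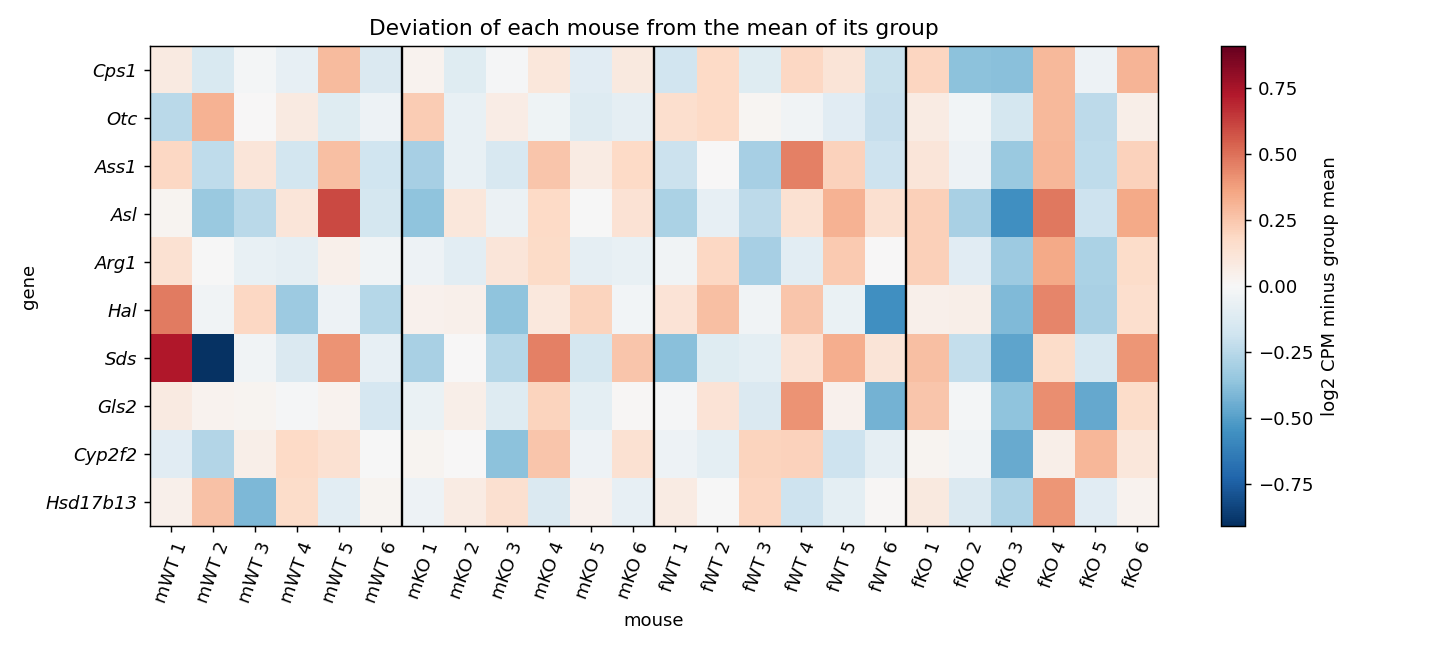
Deviation of each mouse (columns, 6 per group) from its group mean for the 10 genes (rows), in log2 CPM (colour). The column of fKO 3 is low in all rows (mean −0.38), that of fKO 4 is high in all rows (mean 0.32), and Sds shows the widest spread in mWT mice (−0.90 in mouse 2 and 0.73 in mouse 1).

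Otc was in none of the pairs that passed. It had r = 0.22 with Cps1, its partner in the mitochondrion, and r = −0.09 with Ass1, which takes up its product citrulline after export (permutation p = 0.387 and 0.696, rho = 0.18 and −0.08, adjusted p = 0.497 and 0.764, and r = 0.14 and −0.15 without the 2 farthest mice). These values combine groups whose own r differed, each from 6 mice. Within the 6 fKO mice, r of Otc with Cps1, Ass1, Asl and Arg1 was 0.66, 0.92, 0.83 and 0.95, while within the 6 mWT mice it was −0.62, −0.74, −0.50 and −0.59. In mKO mice r of Otc with these genes, in the same order, was 0.26, −0.80, −0.87 and 0.17. In fWT mice it was 0.21, −0.15, −0.73 and 0.0080. With fKO mice 3 and 4 left out, r over the other mice was 0.0039 with Cps1, −0.33 with Ass1, −0.41 with Asl and 0.14 with Arg1. The lowest r of the 45 pairs was that of Otc and Sds, at −0.44 (rho = −0.33, permutation p = 0.062, adjusted p = 0.121). It was −0.35 without the 2 farthest mice, −0.63 without fKO mice 3 and 4 and −0.82 without the fKO group. By group it was −0.98 in mWT, −0.53 in mKO, −0.77 in fWT and 0.66 in fKO mice. Whether these values differ between the groups was not tested.

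Among all genes tested, the 3 genes most like Otc over the 24 mice were Uqcrh (r = 0.87), a nuclear gene for a subunit of respiratory complex III, Cfhr2 (r = 0.86) and mt-Cytb (r = 0.84), a gene of the mitochondrial genome. Since mt-Cytb is itself part of the mitochondrial reads, the relation of Otc to their share is given as a description, with no test. After subtraction of group means r was 0.83 over the 24 mice (rho = 0.84, and r = 0.83 without the 2 farthest mice). For Hsd17b13 r was 0.63 (rho = 0.57, and r = 0.55 without the 2 farthest mice), and for Ass1 it was −0.18 (rho = −0.16, and r = −0.04 without them). With the total count of the library Otc had r = 0.04 (rho = 0.12, and r = −0.11 without the 2 farthest mice). What links Otc to the mitochondrial read share was not tested.

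**Figure D5:**
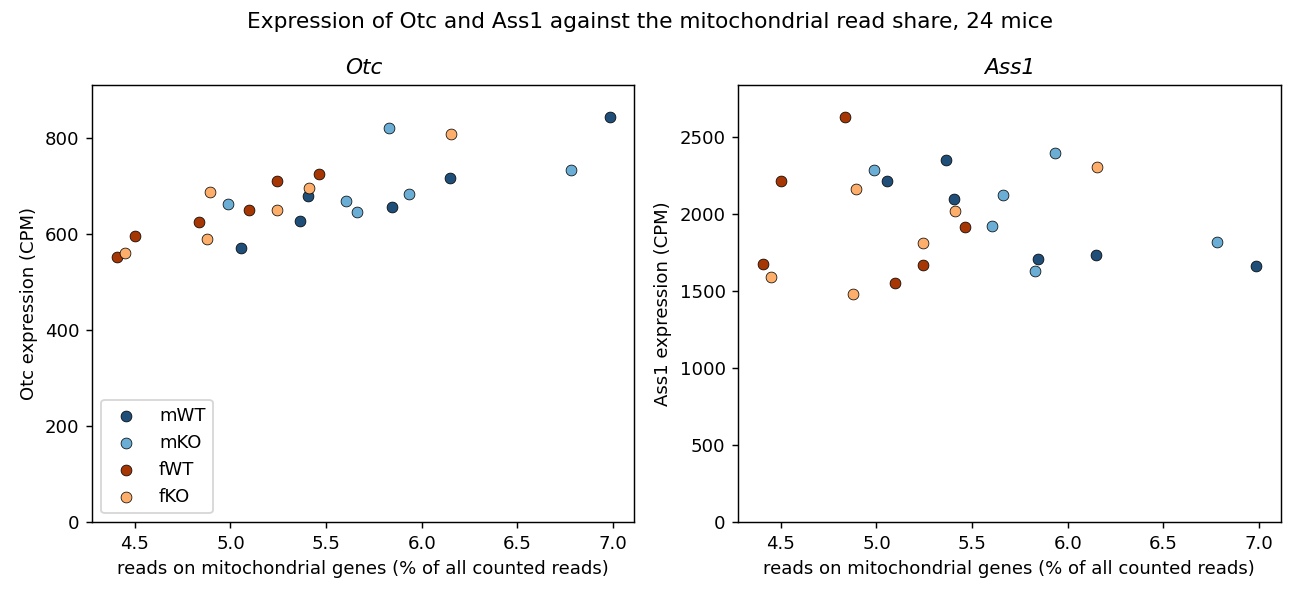
Expression of Otc (left) and Ass1 (right) in CPM against the share of counted reads on mitochondrial genes in percent, 1 point per mouse, coloured by group. Otc goes from 552 CPM in the mouse with the lowest share (4.41%) to 843 CPM in the one with the highest (6.98%), and Ass1 shows no such course.

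The promoters of Otc and Ass1, the members with the fewest and the most pairs among the urea cycle enzymes, are shown side by side. The 250 bases of Otc (chrX:10252055-10252304, plus strand) hold 43.6% G and C, and the 187 bases of Ass1 (chr2:31470020-31470206, plus strand) hold 75.4%, beside a median of 52.0% over all promoters. Neither holds any of the 7 patterns, which is why no letter is in capitals. For Ass1 the 63 bases between the first annotated start and the RefSeq start were left out and not searched.
Otc: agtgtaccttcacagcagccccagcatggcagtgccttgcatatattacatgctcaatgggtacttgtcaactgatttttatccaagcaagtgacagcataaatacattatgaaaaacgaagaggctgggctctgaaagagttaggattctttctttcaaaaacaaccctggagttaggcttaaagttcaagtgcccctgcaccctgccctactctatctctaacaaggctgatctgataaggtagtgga
Ass1: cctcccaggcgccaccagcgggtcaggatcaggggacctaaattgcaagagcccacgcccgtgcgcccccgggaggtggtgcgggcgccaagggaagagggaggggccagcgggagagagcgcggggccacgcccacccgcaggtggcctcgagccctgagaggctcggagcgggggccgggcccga

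The genes most like each other member over the 24 mice are given as a description. Ass1 was closest to Aldh1l1 (r = 0.89), a folate enzyme, Gnmt (0.82) and Dmgdh (0.81), both enzymes of one-carbon metabolism. Among the genes closest to Cps1 were Got1 (0.74) and Aass (0.71), both amino acid enzymes. Gls2 was closest to Adssl1 (0.80), Cth (0.74) and Dmgdh (0.73), Asl to Tex261 (0.86), Gnl1 (0.86) and Gpt2 (0.85), and Arg1 to Sdhd (0.77), Mrpl40 (0.73) and Pwp1 (0.72). Hal was closest to Rwdd3 (0.80), Slc27a5 (0.75) and Amdhd1 (0.75), the last of which acts later in the breakdown of histidine. Sds was closest to Ccar2 (0.78), Furin (0.78) and Hpn (0.76). For Cyp2f2 the closest were Daglb, Ldah and Srd5a1 (r = 0.92 each), and after subtraction of group means these values were 0.66, 0.57 and 0.57, so that a large part was the difference between the sexes. Hsd17b13 was closest to Uox (0.88), urate oxidase, which kept r = 0.86 after subtraction, and to Akr1c12 (0.82) and Dnase2b (0.81).

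Some reads of 4 members are uncertain. The exons of Sds share 360 of 1694 bases with Plbd2 on the opposite strand, those of Gls2 share 97 of 3474 bases with Spryd4, and those of Cyp2f2 share 274 of 2025 bases with Gm15883. The libraries kept the strand, but the strand setting of the counting is not given in the sources used here. Ass1 is 99.5% identical over 1240 bases to the gene Gm5424, which has no row in the count data, and how reads matching both were counted is not given either.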

How the data were processed

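Stranded mRNA libraries of snap frozen liver, 1 per mouse, were sequenced together as single-end reads of 100 bp. The authors trimmed the reads with fastp (version 0.20 in the submitters' processing notes), aligned them to GRCm38.p6 with STAR (2.7a) and counted them with featureCounts of Rsubread. The deposited values are the resulting read counts for each Ensembl gene, neither normalized nor filtered. The annotation release, the strand setting and the treatment of reads with several matches are not given in the sources used here. Groups and mouse numbers were taken from the sample labels, and each p-value measures the spread between mice, which are separate animals.

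Symbols and exon lengths were taken from GENCODE M21 (25635 of 25746 genes matched), and promoters from RefSeq for GRCm38.p6. Counts were analysed with edgeR 4.0.16 in R 4.3.3. The filter, 0.66 CPM or more in 6 or more of 24 libraries, left 12330 genes, libraries were scaled by TMM, and a robust quasi-likelihood model with 1 mean per group was fitted to all 24 libraries, with 5 contrasts. A call is a Benjamini-Hochberg adjusted p below 0.05 over all genes tested. Pairs of members were compared on log2 CPM (prior count 2) centred on group means. Within groups, all libraries differed from one another beyond sampling noise (lowest chi-square per gene 7.67). At these depths 3 counts are at most 0.199 CPM, a floor that covers counting error only. The procedure was tested on simulated data.

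The members and gene lists were chosen with earlier results of these data known. The genes named are the 10 members in every comparison and the 3 genes most like each member. Of each other list, at most the 4 called genes with the largest change are named. Where none was called, up to 2 with the smallest p are named, with Nags, Slc25a13, Uroc1, Ftcd and Gldc as exceptions. In the KO comparison, Uroc1, Amdhd1, Ftcd, Amt and Gldc were chosen after their values were seen. The same holds for Nags, Slc25a13 and the genes named only for a call lost without single mice (Apof, Znrf3 and, in WT mice, Slc1a2). Gcat was left out, since its symbol matched 2 gene identifiers, and Slc25a2, Arg2, Tdh and Sp5 did not pass the filter. Alternatives were DESeq2 1.42.0, its size factors, no filter, non-robust dispersions, the deviances of edgeR 4, removal of the Mup genes, a fit of only the groups compared, a block for the mouse number, each mouse left out, and for pairs Spearman's rho and values without centring. For the pairs, fKO mice 3 and 4 or the fKO group were also left out, alternatives chosen after seeing the data. A gene among those most like a member is not reported here.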

Additional observations from a re-analysis of the deposited data

How the results depend on the processing

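With 0 of 10 members called for the KO effect in males, in females and for their difference, the count stayed at 0 under every alternative run. Cyp2f2 remained called between the sexes under all 32 alternatives in each genotype. Leaving out single mice gave 1 to 2 members called between the sexes in WT mice (2 without mWT 1 or fWT 6, where Hal was added) and 1 to 2 in KO mice (where Hsd17b13 was lost). With mouse number as a replicate block, 1 member was called in KO mice, as the adjusted p of Hsd17b13 was 0.0792, and no other call of a member changed. A shared number marks different animals, whose deviations correlated at −0.34 to 0.17, and the numbers do not pair them. The pairs called ranged from 8 to 18 when single mice were left out, and numbered 9 without fKO mice 3 and 4, 9 without the fKO group, 14 with size factors, 15 with Spearman's rho and 17 without centring. Among all genes, 142 were called for the KO effect in males by DESeq2, 48 with only the males fitted and 2 with the Mup genes removed (26 in the analysis reported), with 19 to 59 when single mice were left out. The counts in females were 18 with DESeq2 and 0 without the Mup genes (11 reported), and DESeq2 called 10 for the difference (1 reported). Members that were not called changed sign in 28 results. With the replicate block the log2 values were 0.0026 for Cps1 and 0.0033 for Otc (difference of the KO effects), and −0.014 for Asl and −0.042 for Sds (between the sexes in WT mice). With single mice left out, the values ran for the KO effect in males Cps1 −0.063 to 0.026, Otc −0.0067 to 0.11, Ass1 −0.0033 to 0.11, Sds −0.049 to 0.26. They ran for the KO effect in females Cps1 −0.076 to 0.057, Otc −0.011 to 0.095, Ass1 −0.096 to 0.069, Arg1 −0.045 to 0.086, Hal −0.041 to 0.13, Gls2 −0.050 to 0.13, Cyp2f2 −0.017 to 0.13, Hsd17b13 −0.032 to 0.11. They ran for the difference of the KO effects Cps1 −0.094 to 0.041, Otc −0.056 to 0.064, Ass1 −0.019 to 0.15, Asl −0.16 to 0.082, Arg1 −0.0040 to 0.13, Gls2 −0.067 to 0.11, Cyp2f2 −0.012 to 0.13. They ran between the sexes in WT mice Cps1 −0.077 to 0.023, Ass1 −0.045 to 0.12, Asl −0.14 to 0.073, Arg1 −0.10 to 0.0031, Sds −0.14 to 0.16. They ran between the sexes in KO mice Cps1 −0.11 to 0.022, Asl −0.16 to 0.041, Arg1 −0.050 to 0.082, Hal −0.13 to 0.040. Each of these values with the opposite sign was smaller than its standard error. Depth ranged upward from 1212 reads for each member in each mouse.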
